A study of Zea mays with 12 samples.

Results

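Chitinase, PR-5 and acco20 are 3 defence-related maize genes that were followed array by array in giant cells and in control cells of infested roots. They were chosen by name, as every probe set whose gene, RefSeq symbol or synonym in the tables used is chitinase, PR-5 or acco20. The choice gave 3 genes with 1 probe set each, of the 17621 probe sets on the array besides the manufacturer's controls. RefSeq lists 4 maize genes under the name chitinase, and 1 of them, Gene ID 542525 (synonym chn1), is tied to a probe set in the platform table. PR-5 is Gene ID 542720 (synonym pr5) and acco20 is Gene ID 542137 (synonym ZmACO20).

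Cells had been cut by laser from roots of a maize cross, which the labels give as A188 and B73, and all plants, those of the control cells included, carried the nematode Meloidogyne incognita. Seedlings aged 2 weeks in sand and turface received 1000 juveniles each, and roots were taken 14 or 21 days later. Giant cells, the enlarged feeding cells that a root-knot nematode induces, were cut from infested root parts (about 40 to 60 cells over about 5000000 square micrometres). Control cells were cut from root parts of the same infested plants that were not infested themselves (about 75 to 150 cells over about 13000000 square micrometres). The comparison is therefore between cells of infested plants and holds no plant free of nematodes, and a larger area was captured for controls. There were 4 groups (2 cell types at 2 times) of 3 arrays, titled as biological replicates, and nothing in the labels ties equal replicate numbers to one plant.

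Pathogenesis-related (PR) proteins are a set of plant proteins that accumulate after attack by microbes or other pests. Chitinases cleave chitin, a polymer of fungal walls and of nematode egg shells, and members of the PR-5 family resemble thaumatin and can act against fungi. The gas ethylene is a plant hormone made from methionine by way of S-adenosylmethionine and ACC (1-aminocyclopropane-1-carboxylate). ACC oxidase, the enzyme that acco20 is named for, turns ACC into ethylene in the last step, and ethylene is one of the signals that can induce PR genes.

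The deposited values are MAS5 signals, brightness on a linear scale, which the authors scaled to a common trimmed mean per array. Median signal ran from 182.2 to 229.9 over the 12 arrays. A signal of 9.5, the 10th percentile of all deposited values, was added before log2, and signals below it are called below the offset here. Bacterial and phage transcripts added to each array had mean log2 signals of 12.8 to 13.3 on control arrays and of 13.5 to 14.2 on giant-cell arrays, so these ranges did not overlap. The log2 ratio of 3′ to 5′ actin signal ran from 2.09 to 3.65 in control cells and from -0.05 to 1.45 in giant cells. The lists of named genes held no marker that defines giant cells, so the label was not checked against one. Several, but not all, markers of other root cells differed between the cell types in the mean of both days. Of 4 xylem markers, 3 fell (cesa10, cesa11 and CesA12), where 17% of all probe sets tested were called lower and 25.1% higher. LAC1 did not pass (log2 0.40, limma adjusted p = 0.275). The summed signal of all 4 was 715 to 3022 on control and 308 to 1017 on giant-cell arrays. LAC1 made up 277.7 of the lowest giant-cell sum. Both tested genes listed as meristem markers, lg3 and rs2, rose (summed signal of 3 genes, 60.4 to 152.7 and 186.1 to 486.6). The other gene of that sum, kn1, was too dim to pass the filter. With no filter it stood at 0.38 (limma adjusted p = 0.383), so no cell type is named from this list. All 4 tested of 8 markers of lateral root primordia rose (351.2 to 827.7 and 932.3 to 1506). Of 2 root hair and epidermis markers, rbohB rose and rop6 fell. Their summed signal (824 to 1237 and 1055 to 1502) is mostly that of rbohB. The signal of rop6 alone was 225.3 to 506.8 on control and 34.8 to 202.8 on giant-cell arrays. The 1 marker of photosynthetic tissue did not pass (157.1 to 337.2 and 132.9 to 337.7). Scaled to the added transcripts, rs2, rbohB, GRF2, GRF4 and GRF12 no longer passed (limma adjusted p = 0.0501 to 0.809). The calls of cesa10, cesa11, CesA12, lg3, GRF8 and rop6 held. The photosynthetic marker was then called lower (-0.92, adjusted p = 0.0299), as were 41% of all probe sets tested. Each marker gene is given by its brightest probe set. A dimmer probe set of the photosynthetic marker varied more, from 2.32 to 696.6 on control and from 2.99 to 574.2 on giant-cell arrays. None of these markers was below the offset on every array of a cell type.

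**Figure D1:**
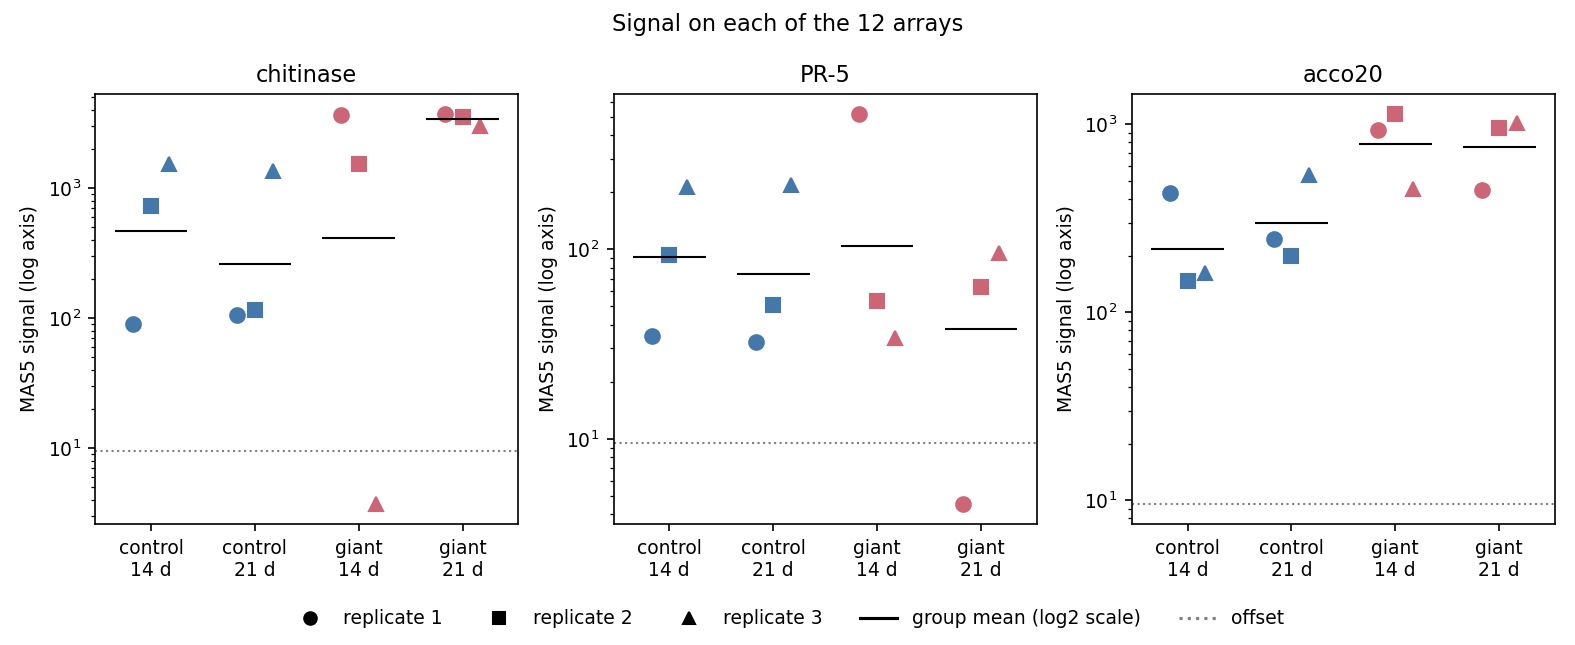
MAS5 signal (log axis) of chitinase, PR-5 and acco20 on each of the 12 arrays, by cell type and day. Symbols give the replicate, black lines the group mean on the log2 scale and the dotted line the offset of 9.5. The acco20 signals at 14 days separate by cell type, and chitinase is at 3.67 on 1 giant-cell array against 1537 to 3744 on the other 5.

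The first comparison asked whether these genes differed between giant and control cells. Of the 3 genes, acco20 rose in giant cells and the other two did not pass the test, in the mean of both days and at 14 days alone. At 21 days none of the 3 passed. Tests were made with limma over 12080 probe sets with Benjamini-Hochberg adjustment and a threshold of 0.05. In the mean of both days, 25.1% of all probe sets tested were called higher and 42.2% were called in either direction, and 17% lower, so 1 of 3 members is close to the background. At 14 days 27.5% were called, 15.5% higher and 12% lower. At 21 days 18.4% were called, 9.63% higher and 8.73% lower. Scaled to the added transcripts, 351 were called higher and 2413 lower at 14 days, and 140 higher and 3478 lower at 21 days. At 21 days an unadjusted limma p under 0.05 was reached by 2 of the 3 members (chitinase and acco20) and by 4172 of all probe sets.

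The ACC oxidase gene acco20 was brighter in giant cells. At 14 days its control signals were 429.8, 146.6 and 161.9, and its giant-cell signals 931.5, 1140 and 454.3. Every giant-cell array at 14 days lay above every control array, although the highest control array and the lowest giant-cell array were close. Such a separation at 14 days was seen in 26.1% of probe sets tested. Signals of the 21-day control were 245.0, 198.9 and 537.4, those of the giant cells 447.4, 959.2 and 1020, and the groups overlapped at 1 array of each. The mean signal in control cells was 246 ± 159 (SD, n = 3) at 14 days and 327 ± 184 at 21 days. In giant cells it was 842 ± 351 and 809 ± 315.

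Averaged over both days, acco20 was 2.96-fold higher in giant cells (log2 1.56 ± 0.35 SE, 95% interval 0.80 to 2.33, limma over 6 and 6 arrays, adjusted p = 0.00399). At 14 days it was 3.49-fold higher (log2 1.81 ± 0.50 SE, limma adjusted p = 0.0187). At 21 days the log2 change was 1.32 ± 0.50 with a limma adjusted p of 0.0839, and the change between days was -0.48 (95% interval -2.01 to 1.05, adjusted p = 0.935), so the effect at 21 days was not shown to differ from that at 14 days. The call over both days held without any 1 array (log2 1.42 to 1.80, adjusted p up to 0.0120). The call at 14 days was lost without any 1 of 4 arrays, replicates 2 and 3 of the control cells and replicates 1 and 2 of the giant cells of that day (adjusted p = 0.0720, 0.0656, 0.0579 and 0.0688). At 21 days the gene passed without replicate 3 of the control cells (1.74, adjusted p = 0.0366).

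With scaling to the added transcripts the log2 change of acco20 was smaller and missed the threshold in the mean of both days (log2 0.89, adjusted p = 0.0533) and at 14 days (1.25, adjusted p = 0.0862). Over all probe sets tested, the median change went from 0.15 to -0.52 with that scaling, and 3.87% were called higher and 41% lower. The part of the tissue markers and of transcript integrity in this rise was not tested. In these samples, fewer cells of a type and less RNA per cell cannot be told apart.

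**Figure D2:**
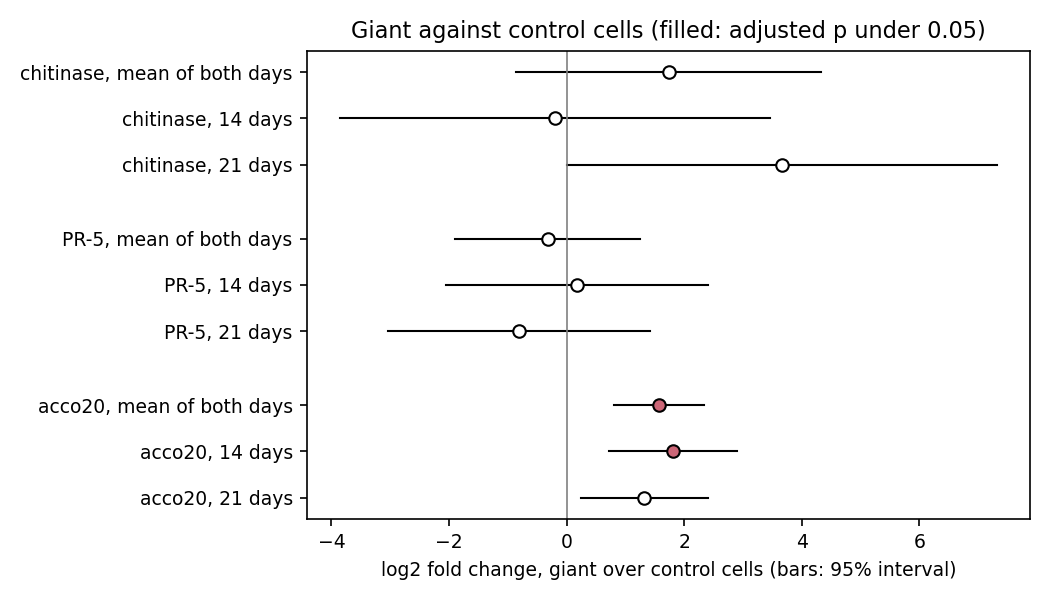
Log2 fold change of giant over control cells for each gene, averaged over both days and on each day, with the 95% interval of the limma model as bars. Filled points passed the adjusted threshold of 0.05: those of acco20 for the mean of both days (1.56) and for 14 days (1.81). The chitinase and PR-5 intervals are wider, and that of chitinase at 21 days runs from 0.00 to 7.32.

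Chitinase was bright on 5 of the 6 giant-cell arrays and nearly dark on the other. At 14 days its signals in control cells were 89.1, 723.7 and 1527, and in giant cells they were 3643, 1537 and 3.67. Both bright giant-cell arrays lay above all 3 control arrays, by little in the case of replicate 2, and replicate 3 lay below them all and below the offset. At 21 days the control signals were 105.7, 114.9 and 1346 and the giant-cell signals 3744, 3493 and 2977. All giant-cell arrays of that day lay above all control arrays, as did those of 22.7% of probe sets tested. None of the 3 genes separated by cell type on both days, against 13.3% of probe sets. The giant cells at 21 days were also the only group with little spread, with a highest signal 1.26 times the lowest, against 17.1 and 12.7 times in control cells at 14 and 21 days.

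With all 12 arrays the change of chitinase did not pass on either day or over both. Over both days the log2 change was 1.73 ± 1.20 SE (95% interval -0.85 to 4.32, limma adjusted p = 0.259). At 14 days it was -0.19 ± 1.69 (adjusted p = 0.943). At 21 days it was 3.66 ± 1.69, which is 12.6-fold (limma adjusted p = 0.144). Its p before adjustment in limma was 0.0499. The difference of the effect between days was 3.85 (95% interval -1.32 to 9.03, adjusted p = 0.811). For that difference limma called 0% of probe sets after adjustment, with 839 at an unadjusted p under 0.05 and no member among them. These standard errors rest on a residual SD of 2.62 log2 units within groups, larger than that of 99.9% of the 12080 probe sets tested, whose median was 0.39.

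The chitinase result depended on replicate 3 of the giant cells at 14 days. Without it the log2 change over both days was 2.98 and passed (limma adjusted p = 0.00987), as did 2683 of 11950 probe sets called higher in that fit. The change at 14 days turned from -0.19 to 2.31 (adjusted p = 0.171), and the difference of the effect between days went from 3.85 to 1.35 (adjusted p = 0.965). The change at 21 days stayed at 3.66 and passed (adjusted p = 0.0278), in a fit where all 4 groups share one estimate of the spread. At 21 days that fit called 1125 of 11950 probe sets higher. Without any other single array the change over both days stayed above 0 and did not pass. The lowest value, 0.95, came from leaving out replicate 1 of the giant cells at 14 days.

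The loss of chitinase signal on that array was not shared by most bright genes. Of 1912 probe sets with signals above 1000 on the other 5 giant-cell arrays, 2 were below the offset on replicate 3 at 14 days, chitinase and a probe set with no gene name in the table used. The latter had signals of 1354 and 2290 on the other giant-cell arrays at 14 days, 2.07 on replicate 3, and 1142, 2330 and 1491 at 21 days. On each of the other 11 arrays, judged the same way within its cell type, no probe set was below the offset. The 2 other members were not dark on that array, with signals of 454.3 for acco20 and 34.2 for PR-5. The heat shock gene hsp22 was at 2816 there, against 125.4 to 583.0 on the other giant-cell arrays. In control cells hsp22 and chitinase had the same highest and the same lowest array, and the order between these differed. Replicate 3 at 14 days was highest for both (hsp22 at 7003, chitinase at 1527). Replicate 1 at 14 days was lowest for both (hsp22 at 60.2, chitinase at 89.1). Replicate 2 at 21 days had the next highest hsp22 signal (974.7) with chitinase at 114.9. Replicate 3 at 21 days had chitinase at 1346 with hsp22 at 603.8. The part of this stress gene in the chitinase signal was not tested.

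**Figure D3:**
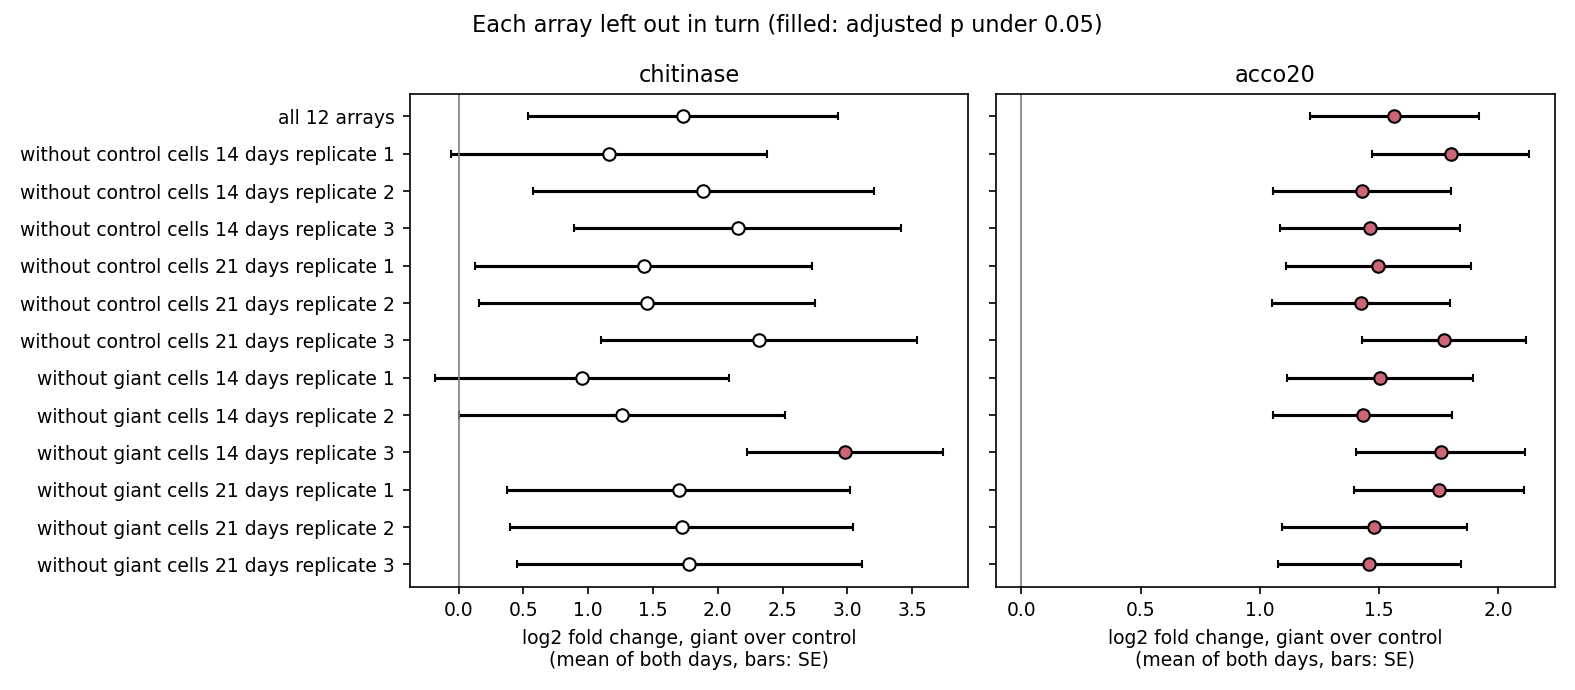
Log2 fold change of giant over control cells, mean of both days, for chitinase and acco20 with all 12 arrays and with each array left out in turn. Bars are standard errors and filled points passed the adjusted threshold of 0.05. Chitinase passed only without replicate 3 of the giant cells at 14 days (2.98), while acco20 passed in all 12 fits, between 1.42 and 1.80.

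PR-5 was dim and showed no change with cell type that passed. At 14 days its control signals were 34.7, 93.6 and 212.5, and its giant-cell signals 520.2, 53.3 and 34.2. At 21 days the control signals were 32.5, 50.6 and 218.7 and the giant-cell signals 4.51, 63.1 and 95.3, with the lowest value below the offset. The groups overlapped on both days, and the single brightest and the single dimmest array were both from giant cells. PR-5 passed the filter on dim probe sets with the least margin possible, on 3 of 12 arrays, against 8 for chitinase and 12 for acco20.

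The log2 change of PR-5 over both days was -0.32 ± 0.73 SE (95% interval -1.89 to 1.26, limma adjusted p = 0.746). At 14 days it was 0.17 ± 1.03 (adjusted p = 0.914) and at 21 days -0.81 ± 1.03 (adjusted p = 0.613). The interval over both days leaves room for a fall to 0.27 times or a rise to 2.39 times the control level. The sign was not stable: over both days it turned positive without replicate 3 of the giant cells at 14 days (0.03) or replicate 1 of the giant cells at 21 days (0.12).

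The comparisons of 21 with 14 days asked whether the genes changed with the age of the infestation within a cell type. None of the 3 passed in giant cells, where limma called 0.637% of all probe sets, or in control cells, where it called 0.0248%, and none reached an unadjusted limma p under 0.05. In giant cells the log2 change was 3.01 ± 1.69 SE for chitinase (adjusted p = 0.380), -1.26 ± 1.03 for PR-5 (0.559) and -0.05 ± 0.50 for acco20 (0.973). Without replicate 3 of the giant cells at 14 days the chitinase value was 0.52. In control cells the changes were -0.84 for chitinase, -0.27 for PR-5 and 0.43 for acco20, each smaller than its standard error. For acco20 in giant cells the 95% interval of -1.13 to 1.04 bounds a change over that week to about 2.19-fold lower or 2.05-fold higher.

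Ordered by their mean on the log2 scale, the 4 groups stood differently for each gene. For chitinase the lowest group was the 21-day control, followed by the 14-day giant cells, the 14-day control and, highest, the 21-day giant cells. Of its neighbours in that order, only the last pair had ranges that did not overlap, with a step of 2.82 that was 1.38 times the larger SD. For PR-5 the 21-day giant cells were lowest, then the 21-day control, the 14-day control and the 14-day giant cells, and every step was smaller than the larger SD. For acco20 both control groups (14 days, then 21 days) stood below both giant-cell groups (21 days, then 14 days). The middle step, from control to giant cells, was 1.32, or 1.80 times the larger SD, and the outer steps were smaller than 1 SD. All neighbouring acco20 ranges overlapped.

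Within control cells, chitinase and PR-5 were bright and dim on the same arrays. The brightest 2 of the 6 control arrays were replicate 3 at 14 days and replicate 3 at 21 days for both genes. Over the 6 control arrays Pearson's r of their log2 values was 0.97 (exact permutation p = 0.00556, adjusted p = 0.0333 over 6 relations) and Spearman's rho was 0.89 (exact permutation p = 0.0333, adjusted p = 0.20). Without these 2 arrays, the farthest from the median of chitinase, r was 0.94 over 4 arrays. The rank correlation thus did not pass the adjustment, and 3 arrays per day are too few for a value within days. The relation was picked out after its values were seen. In giant cells the same pair had r = 0.22 (exact permutation p = 0.440, n = 6). Over the control arrays acco20 had r = -0.12 with chitinase and r = -0.01 with PR-5 (exact permutation p = 0.732 and 0.972, n = 6). Without the same 2 control arrays these values of acco20 went to -0.76 and -0.81, so coefficients over 4 arrays can move widely.

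**Figure D4:**
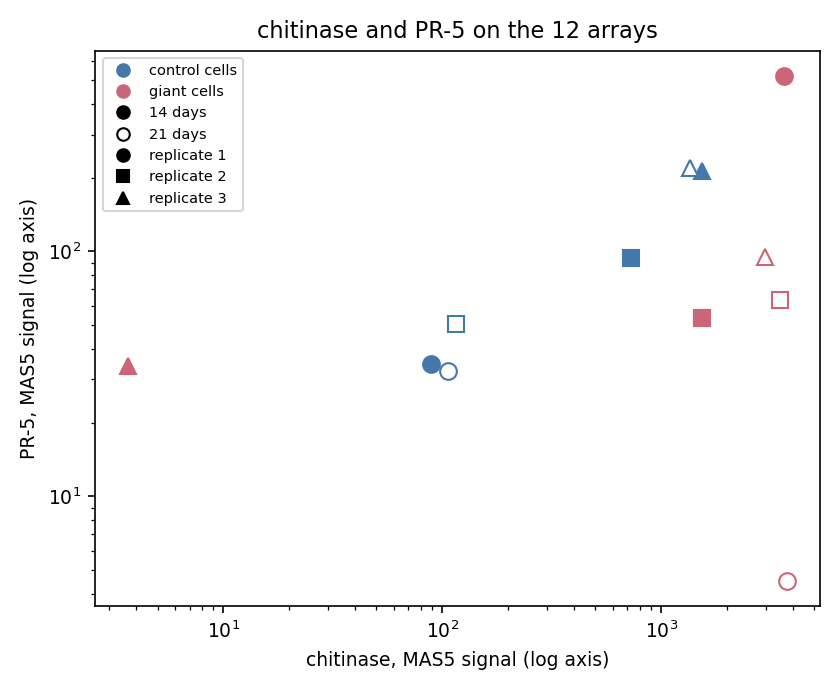
MAS5 signal of PR-5 against that of chitinase (both log axes) on the 12 arrays, with cell type by colour, day by filling and replicate by symbol. The 6 control arrays lie along a line from 89.1 and 34.7 to 1527 and 212.5, and the 6 giant-cell arrays do not.

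Of the 3 other genes matched as pathogenesis-related proteins, Zlp was bright on the same 2 control arrays. Zlp (Gene ID 542299, synonym sip1) is a zeamatin-like gene of the thaumatin family that PR-5 belongs to. The brighter Zlp probe set had signals of 381.6 and 286.5 on these 2 arrays and 30.8 to 92.0 on the other control arrays. For wip1, a wound-induced proteinase inhibitor gene too dim to pass the filter, they were 72.7 and 37.5 against at most 30.9. PR-1 was at 2.48 and 1.25 on these arrays and at up to 17.1 on the other control arrays. The share of all probe sets with these 2 arrays brightest among the control arrays is not given here, so no pattern of PR genes is claimed. Outside this list they were also brightest for hm1 (187.4 and 166.0 against at most 97.5), but not for other defence signalling genes. They were so for a dimmer probe set of the photosynthetic marker (696.6 and 673.0 against at most 197.6), but not for its brightest. These arrays were singled out after the values of chitinase and PR-5 were seen.

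Of the 5 PR genes 3 were tested between cell types, and none of these passed (median log2 change -0.32, against 0.15 over all probe sets tested), nor did any reach an unadjusted limma p under 0.05. Without replicate 3 of the giant cells at 14 days 1 passed, chitinase, in a fit that called 2683 of 11950 probe sets higher. Zlp stood at -0.65 (adjusted p = 0.430), with -0.35 for its dimmer probe set (adjusted p = 0.763). With no filter, wip1 stood at 0.16 (adjusted p = 0.822) and PR-1 at -0.02 (adjusted p = 0.951).

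Among the genes matched by the symbols of ethylene synthesis and signalling, 8 in all, 5 were tested and acco20 alone passed, where 25.1% of all probe sets were called higher. One of the 5, ACC1, is an acetyl-CoA carboxylase gene and belongs to the list by name only. The list median of 0.02 is the value of ACC1 itself and does not describe the other 4 genes. The ethylene receptor gene etr2 stood at -0.15 (limma adjusted p = 0.648), sam2 at -0.05 (0.761) and ERF1 at 1.56 ± 0.71 SE (0.0935). With no filter, the transcription factor genes EREB55 and EREB1 stood at 0.20 (0.699) and 0.10 (0.871). The signals of ERF1 ran from 84.4 to 1514 in control cells and from 201.0 to 2760 in giant cells and overlapped on both days. Scaled to the added transcripts, none was called higher, and etr2 (-0.83), sam2 (-0.74) and ACC1 (-0.66) were called lower, under a scaling that called 41% of all probe sets lower.

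A second gene named as an ACC oxidase went the other way. ACO31 (Gene ID 542136) was too dim to pass the filter and was read from the fit with no filter, over 17621 probe sets. Its signals in control cells were 29.3, 101.8 and 364.2 at 14 days and 27.4, 38.7 and 78.9 at 21 days. In giant cells they were 4.09, 7.06 and 7.35 at 14 days and 4.86, 17.1 and 9.76 at 21 days. All 6 giant-cell arrays lay below all 6 control arrays, as for 5.77% of all probe sets, and 4 of them were below the offset, which compresses the fold. Over both days ACO31 fell by 2.19 on the log2 scale (± 0.45 SE, 4.57-fold lower, limma adjusted p = 0.00282), a call made as lower for 13.6% of probe sets without the filter. At 14 days it fell by 2.91 (adjusted p = 0.00776, with 9.1% of probe sets called lower), and at 21 days the change was -1.47 (adjusted p = 0.149). The call over both days held with each other scaling and offset tried and without any 1 array (-2.59 to -1.77). The size depended on the offset, with -1.19 for one at the 25th percentile of all signals and -3.17 with none.

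**Figure D5:**
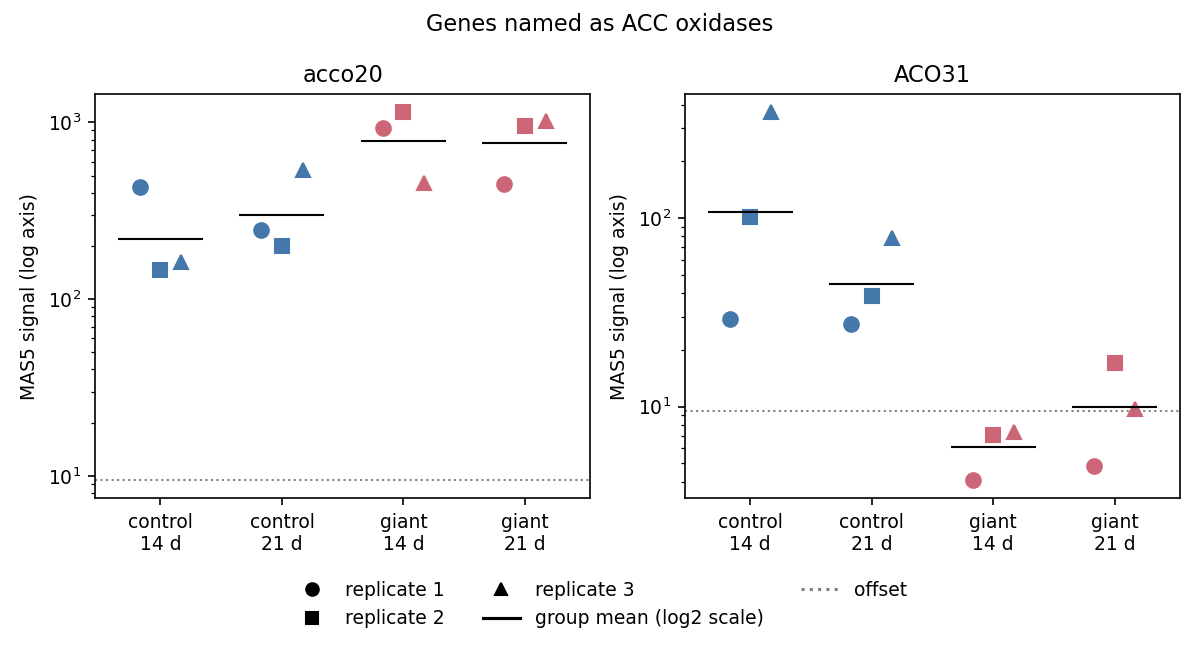
MAS5 signal (log axis) of acco20 and ACO31 on each of the 12 arrays, with symbols for replicates, black lines for the group mean on the log2 scale and a dotted line for the offset of 9.5. The acco20 signals are higher on average in giant cells and overlap at 21 days, where the change did not pass. Those of ACO31 are 27.4 to 364.2 in control cells and 4.09 to 17.1 in giant cells.

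Of 5 genes of defence signalling, 1 fell and 4 did not pass, near the 17% of all probe sets called lower. Their median log2 change was -0.53, against 0.15 over all probe sets tested. The faller was the mitogen-activated protein kinase gene mpk6 (-0.76 ± 0.21 SE, limma adjusted p = 0.0122), with signals of 368.2 to 710.0 in control cells and 139.9 to 585.8 in giant cells. The kinase gene MPK4 stood at -0.78 (0.0847), the phenylalanine ammonia lyase gene PAL1 at -0.53 (0.157), hm1, which encodes the reductase that inactivates a fungal toxin, at 0.40 (0.358), and mpk2, listed under the synonym MAPK, at 0.06 (0.760). Scaled to the added transcripts, 4 of the 5 were called lower and hm1 was not, where 41% of all probe sets were called lower.

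The named genes whose pattern over the 12 arrays was most like each member were sought among 1010 tested probe sets with 1 gene name. For acco20 they were tbp2, which encodes a TATA-binding protein (Pearson r = 0.95), Hcf106C (0.93), the adenine phosphoribosyltransferase gene aprt1 (0.93), SE1B (0.90) and the protein phosphatase gene pp2c-1 (0.90). The first 4 of these were themselves called higher in giant cells (limma adjusted p up to 0.0125), where 25.1% of all probe sets were. Picking genes for their likeness to acco20 favours such calls, so they are no separate result. For chitinase the likeness was weaker. It was led by the benzoxazinoid gene bx6 (0.77), then LOC542286 (0.73), the inositol kinase gene lpa3 (0.70), a calmodulin gene (0.69) and the gene named Snf-4 like (0.67). For PR-5 it was led by Zlp (0.83), then LOC100037813 (0.79), LOC541755 (0.72), LOC100037814 (0.72) and the glutathione transferase gene gst7 (0.70). These coefficients are descriptions over arrays that share 2 cell types, and they carry no test.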

How the data were processed

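The deposited values are intensity, MAS5 signals made by the authors in Affymetrix Expression Console, per the submitters' processing notes. Per the labels' protocols, PicoPure RNA was amplified by NuGEN WT-Ovation Pico, 1 array per sample. The sources used here give no software version. Trimmed means of the 12 arrays ran from 500.1 to 500.2.

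Control probe sets (113 of 17734) were left out. Log2 of the signal plus 9.5 was tested with limma 3.58.1 (R 4.3.3, 1 mean per group, variance trend) for probe sets above the 40th percentile of their array on at least 3 arrays, which left 12080 and removed 5541. The script was tested on simulated data. Tests were two-sided and adjusted by Benjamini-Hochberg over all probe sets of a contrast. The limma p-values set each difference against the spread between samples within groups, estimated with the help of all probe sets tested. Relations between members used exact two-sided permutation over 720 orders. Scaling to added transcripts used 18 control probe sets.

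The platform table names 1 gene for 1452 probe sets, several for 1 and none for 16168. Symbols come from the RefSeq table of the B73 assembly Zm-B73-REFERENCE-NAM-5.0, used for names only, so no positions are given. Named genes are the members, all members of 3 lists matched on symbols, and the 5 genes most like each member. The stress gene hsp22 was named besides, after its values were seen. Members and lists were chosen with earlier results of these data known. Samples were treated as unpaired, since the labels do not say whether equal replicate numbers share a plant. Of 6 same-numbered pairs of giant and control cells, 2 had deviations correlated over 0.1 (range -0.07 to 0.16). Such values cannot show whether the samples were paired.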

Additional observations from a re-analysis of the deposited data

Results flagged for a closer look

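Chitinase on replicate 3 of the giant cells at 14 days stood far from the other 5 giant-cell arrays. Its gap to the next array was 0.843 of the whole range on the log2 scale, above Dixon's 95% critical value for 6 arrays. Such a gap was tested for 3 genes in 2 cell types, 6 tests in all, taking the arrays of both days together, and no other was found. About 1 in 20 groups taken without regard to their values would exceed the value by chance. That rate does not apply to chitinase, since the weight of single arrays on it was known beforehand. The gap is therefore a description and no separate support. The signal was 3.67, against 1537 to 3744 on the other giant-cell arrays.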

How the results depend on the processing

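Of 138 values of the 3 genes under alternatives that keep all arrays, 133 kept their direction and their side of the threshold. That count overstates stability. Changing the filter, adding a replicate block or dropping the variance trend leaves the log2 change as it is, so its direction could not turn. In the main fit only acco20 passed, over both days and at 14 days, so most values had no call to lose. Scaled to the added transcripts, acco20 missed the threshold over both days (0.89) and at 14 days (1.25), and PR-5 at 14 days turned to -0.33. Chitinase at 14 days was 0.28 with an offset at the 25th percentile, and acco20 in giant cells between days was 0.00797 with quantile normalization. None of the turned values passed with either setting. The causes were not tested.

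Counts of probe sets called moved by over 1.5 times as follows. Scaled to the added transcripts the count at 21 days was 3618, against 2217. Between days in giant cells it was 77, against 118 with quantile normalization, 19 scaled to the added transcripts, 42 with no filter, 125 with a stricter filter, and 48 both with a replicate block and with no variance trend. Between days in control cells it was 3, against 0 scaled to the added transcripts and 1 with no filter, with a replicate block or with no variance trend. Over both days the split was 3038 higher and 2054 lower, against 468 and 4954 scaled to the added transcripts. For ACO31 at 21 days that scaling gave -1.97, past the threshold. The alternatives for ACO31 and for the gene lists were chosen after seeing the data.

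With the replicate block the count over both days was 5005 against 5092, and no call of the 3 genes changed (acco20 over both days, adjusted p = 0.0084). Over 18 same-numbered pairs the correlations of deviations were -0.07 to 0.24, with 4 over 0.1. No differently numbered pairs were set beside them, so a shared deviation is neither shown nor excluded.

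Leaving out 1 array in turn gave the following ranges. Over both days the count was 4243 to 5333, chitinase 0.95 to 2.98, PR-5 -0.61 to 0.12 and acco20 1.42 to 1.80. At 14 days the count was 2071 to 3453, chitinase -1.75 to 2.31, PR-5 -0.42 to 0.86 and acco20 1.53 to 2.28. At 21 days the count was 1029 to 2438, chitinase 3.05 to 4.83, PR-5 -1.38 to 0.068 and acco20 1.04 to 1.74. For the difference between days the count was 0 to 9 and chitinase 1.35 to 5.41. Between days the count was 4 to 205 in giant cells and 0 to 2 in control cells, with acco20 at -0.43 to 0.33 in giant cells and PR-5 at -0.86 to 0.22 in control cells. PR-5 has a value in 9 of these 12 fits, since it failed the filter without replicate 3 of either control group or replicate 1 of the giant cells at 14 days. It also failed the stricter filter.

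With 3 arrays per group, the spread of chitinase and PR-5 leaves intervals over several log2 units, and signals near the offset give compressed folds.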
